A study of Homo sapiens with 4 samples.

Results

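The genes described here are the SREBP transcription factors, the proteins that hold or release them, and the enzymes that carry carbon from citrate into long-chain fatty acids. Picked by name with earlier results of these data known, they are 9 of the 25066 genes in the table. All 9 passed the filter on low values: SREBF1, SREBF2, SCAP, INSIG1, ACLY, ACACA, FASN, SCD and ELOVL6. Expression was measured by RNA sequencing in NUDUL1, a human diffuse large B cell lymphoma line of germinal center type. The cells came from a single-cell clone with doxycycline-inducible Cas9 and carried the transduced thromboxane receptor Tbxa2r. All were given U46619, a stable thromboxane mimetic that acts through this receptor, at 10 nM for 24 h. There were 2 libraries labelled control, from cells with a control sgRNA, and 2 labelled GNA13-deficient, from cells with an sgRNA against GNA13, the gene of Gα13. No library came from cells without U46619, so the comparison asks which genes differ between genotypes while the Gα13-coupled receptor is being stimulated.

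SREBPs are made as precursors anchored in the endoplasmic reticulum membrane. When sterols are scarce, SCAP escorts them to the Golgi, where proteases free the part that enters the nucleus, and when sterols are plentiful, INSIG proteins retain the complex. The SREBF1 products are known mainly for driving fatty acid synthesis and the SREBF2 product for sterol synthesis and uptake, and INSIG1 is itself a target of the pathway. Dividing B cells need new fatty acids for membranes.

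Total mapped reads ranged from 29209544 to 31537955, and on the linear scale the deposited values were whole reads times a constant between 0.984 and 1.08 for each library. The log2 value of GNA13 mRNA was 12.46 and 12.45 for control and 13.10 and 13.11 for GNA13-deficient. The transcript was not lower but higher where the gene was targeted, by 0.65 (standard error 0.05, adjusted p = 0.00214 by limma). The genotype of each library is therefore known here from its label alone. Of 16945 genes tested with limma, 29.7% differed at an adjusted p under 0.05, 13.1% higher and 16.6% lower in GNA13-deficient, and both libraries of one genotype lay above both of the other for 65.3%. Under median centring, 69.1% of the calls were higher, against 44.0% on the deposited scale. All 9 B cell markers were detected in every library, with a summed level of 6094 and 6444 RPM (reads scaled to the mapped total) in control and 5744 and 6013 in GNA13-deficient. In log2 value, MS4A1 fell by 0.57 and BCL6 fell by 2.49 in GNA13-deficient. Markers of other cell types summed to 16.8 and 18.3 RPM in control and 4.71 and 4.99 in GNA13-deficient, and 4 and 5 of 14 were at 0 in control against 6 and 7 in GNA13-deficient. The T cell genes CD3E and CD3D and the globin gene HBB were at 0 in all 4 libraries, while the leukocyte genes CD4, CD8A, ITGAM, LYZ and PECAM1 were lower in GNA13-deficient and EPCAM was higher. The part of these markers in the results below was not tested. The libraries hold bulk RNA, so a change in the mix of cells and a change per cell cannot be told apart.

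Of the 9 genes, 7 were called, all of them higher in GNA13-deficient, at an adjusted p under 0.05 in limma. Over all genes tested, 29.7% were called and 13.1% were called higher. SREBF1 and INSIG1 changed most. The median log2 difference over the 9 genes was 0.31, against -0.02 over all genes tested, and both GNA13-deficient libraries lay above both control libraries for 8 of the 9, against 31.3% of all genes tested. Only SCAP overlapped. Together the 9 genes took 1851 and 1829 RPM in control and 2379 and 2211 in GNA13-deficient.

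**Figure D1:**
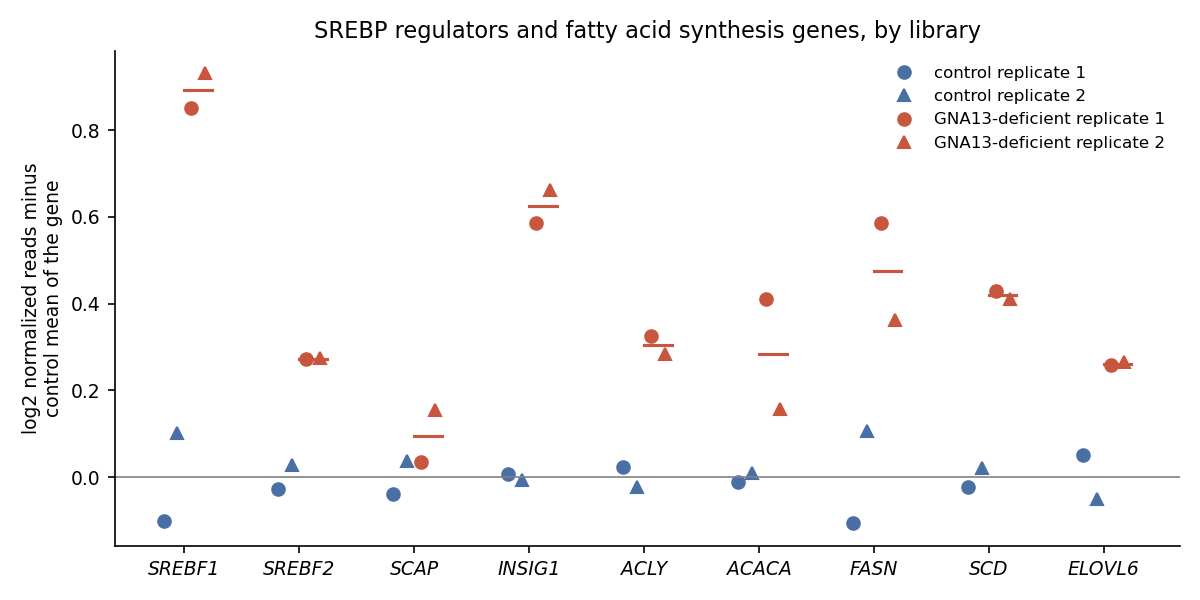
The vertical axis is the log2 normalized read value minus the control mean of the same gene, for each of the 9 genes on the horizontal axis, with circles for replicate 1, triangles for replicate 2, blue for control, red for GNA13-deficient and a bar at the GNA13-deficient mean. The red points lie above the blue points for every gene but SCAP, and the bar is highest for SREBF1, at 0.89.

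SREBF1 (Entrez 6720, chr17:17713713-17740316 on the minus strand of hg19) encodes the SREBP forms tied to fatty acid synthesis. Its log2 values were 9.31 and 9.51 in control and 10.26 and 10.34 in GNA13-deficient, so the genotypes were separated by 0.75 while replicates differed by at most 0.20. The log2 difference was 0.89 (standard error 0.09, adjusted p = 0.00376 by limma), a level 1.86 times that of control with a 95% interval from 1.57 to 2.19. In reads this was 622 and 741 against 1195 and 1204. Its exons overlap those of RAI1 on the opposite strand, and no source used here says whether the counting used strand. RAI1 had log2 values of 10.18 and 10.32 in control and 9.98 and 9.82 in GNA13-deficient, the other direction.

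SREBF2 (Entrez 6721, chr22:42229109-42303310, plus strand) encodes the sterol-directed factor. It had log2 values of 13.25 and 13.30 in control and 13.55 in both GNA13-deficient libraries, a difference of 0.27 (standard error 0.06, adjusted p = 0.0246 by limma). The genotypes did not overlap, but the step was small, 1.21 times the control level (95% interval 1.09 to 1.34). Quantile normalization reduced it to 0.11 with an adjusted p of 0.151, so this call depended on the scaling between libraries. Its exons overlap those of an antisense transcript, SREBF2-AS1, in GENCODE.

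The log2 ratio of SREBF1 to SREBF2 within a library does not depend on that library's scaling constant. It was -3.94 and -3.79 in control and -3.29 and -3.21 in GNA13-deficient, so the balance moved towards SREBF1 by 0.62 with no overlap. The exact two-sided permutation test gave p = 0.333, the smallest that 2 against 2 libraries allow. In all, 6 such ratios were computed.

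SCAP (Entrez 22937, chr3:47455171-47518616, minus strand), the escort of SREBPs, had log2 values of 10.93 and 11.01 in control and 11.01 and 11.13 in GNA13-deficient. Control replicate 2 lay just above GNA13-deficient replicate 1, and no difference was detected (0.09, 95% interval -0.08 to 0.27, adjusted p = 0.358 by limma). A rise of up to 1.20 times the control level lies within this interval.

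INSIG1 (Entrez 3638, chr7:155089486-155101945, plus strand), which retains SCAP and its cargo when sterols are plentiful, had log2 values of 11.30 and 11.28 in control and 11.87 and 11.95 in GNA13-deficient. It rose by 0.62 (standard error 0.05, adjusted p = 0.00262 by limma), to 1.54 times the control level (95% interval 1.40 to 1.70). Of the 9 genes it had the lowest adjusted p and was the only one past the threshold under all 11 alternatives that kept every library. Its paralog INSIG2 had log2 values of 9.58 and 9.60 in control and 9.45 in both GNA13-deficient libraries and was not called (adjusted p = 0.168). The log2 ratio of INSIG1 to INSIG2 was 1.72 and 1.68 in control and 2.43 and 2.51 in GNA13-deficient, and that of INSIG1 to SCAP was 0.36 and 0.27 against 0.87 and 0.82. Neither ratio overlapped between genotypes (exact permutation p = 0.333 each).

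Among the enzymes, ACLY (Entrez 47, chr17:40023170-40086795, minus strand) splits cytosolic citrate into acetyl-CoA. Its log2 values were 14.04 and 14.00 in control and 14.35 and 14.30 in GNA13-deficient, without overlap. The difference was 0.31 (standard error 0.06, adjusted p = 0.0251 by limma). It fell to 0.13 (adjusted p = 0.189) under quantile normalization and to 0.26 (adjusted p = 0.0533) when libraries were scaled to mapped reads.

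ACACA (Entrez 31, chr17:35441927-35766927, minus strand), acetyl-CoA carboxylase, makes malonyl-CoA in the committed step. The log2 values were 11.41 and 11.43 in control and 11.83 and 11.58 in GNA13-deficient. The control pair was tight and the GNA13-deficient pair 0.25 apart, and the difference of 0.28 did not pass (95% interval 0.04 to 0.53, adjusted p = 0.0839 by limma).

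FASN (Entrez 2194, chr17:80036214-80056170, minus strand), the multi-step synthase that builds palmitate, had log2 values of 13.15 and 13.36 in control and 13.84 and 13.62 in GNA13-deficient. The genotypes were 0.26 apart, little more than the 0.21 and 0.22 between replicates. The difference was 0.47 (standard error 0.11, adjusted p = 0.0346 by limma), 1.39 times the control level with a wide 95% interval from 1.14 to 1.70. Under quantile normalization it was 0.31 with an adjusted p of 0.0766.

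SCD (Entrez 6319, chr10:102106990-102124583, plus strand) inserts the double bond that turns stearate into oleate. Its log2 values were 13.29 and 13.34 in control and 13.74 and 13.73 in GNA13-deficient, a separation of 0.39 with replicates at most 0.04 apart. The difference was 0.42 (standard error 0.06, adjusted p = 0.00755 by limma), 1.34 times the control level. A processed pseudogene, SCDP1, resembles its transcript and could share reads with it in the authors' counting.

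ELOVL6 (Entrez 79071, chr4:110967002-111120355, minus strand) extends palmitate to stearate. It had log2 values of 10.52 and 10.42 in control and 10.73 and 10.74 in GNA13-deficient, a small step without overlap. The difference was 0.26 (standard error 0.06, adjusted p = 0.0337 by limma), and 0.21 with an adjusted p of 0.103 when libraries were scaled to mapped reads.

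Of the ratios between enzymes, 3 were computed. The log2 ratio of SCD to FASN was 0.14 and -0.03 in control and -0.10 and 0.11 in GNA13-deficient. That of ELOVL6 to FASN was -2.63 and -2.94 against -3.11 and -2.88, and that of ACLY to ACACA 2.63 and 2.57 against 2.51 and 2.73. All 3 overlapped between genotypes, and 2 against 2 libraries could not have reached an exact permutation p below 0.333.

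All 9 differences were above 0 under each of the 15 alternatives, and the 7 calls were less firm than that. With any 1 library left out, 1 residual degree of freedom remained, the lone library was assumed to vary like the other genotype, and no gene in the table passed an adjusted p of 0.05 in limma. Between 5257 and 5600 genes, and between 5 and 7 of the 9, then had an unadjusted p under 0.05. Of the 9, 4 passed under quantile normalization (SREBF1, INSIG1, SCD and ELOVL6), 5 when scaled to mapped reads and all 9 under median centring, which moved the median of all genes to 0.18. Without the filter on low values 2 passed, INSIG1 and SCD, and SREBF1 had an adjusted p of 0.0533. Without the mean-variance trend 2 passed, SREBF1 and INSIG1, and SCD had an adjusted p of 0.0530.

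**Figure D2:**
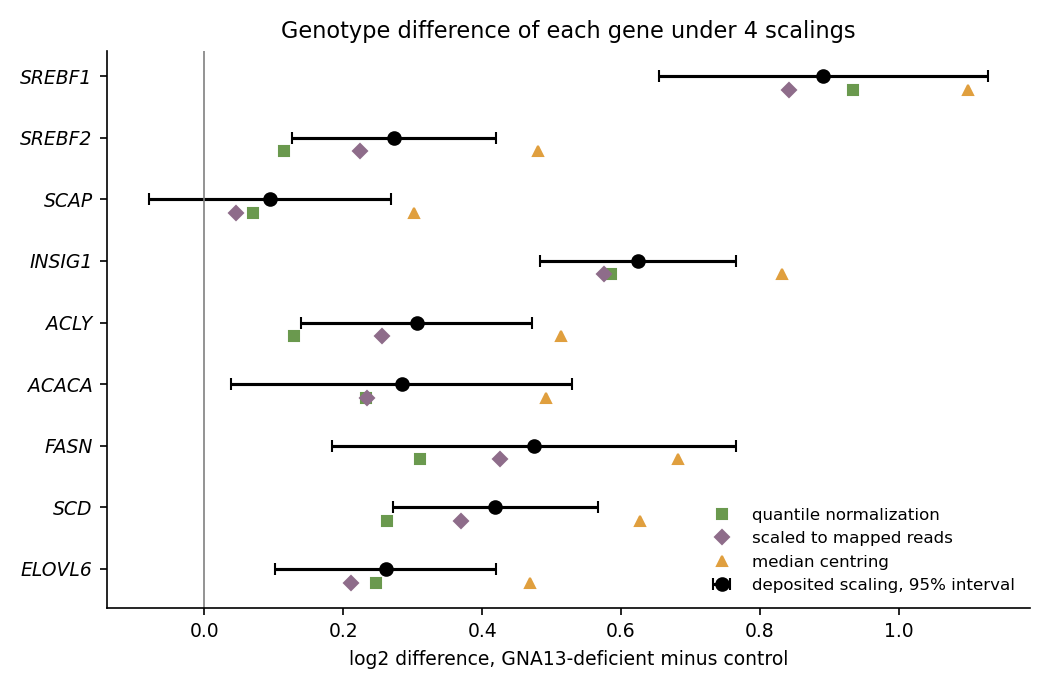
The horizontal axis is the log2 difference between GNA13-deficient and control for each gene, with black points and 95% limma intervals on the deposited scale and coloured symbols for quantile normalization, scaling to mapped reads and median centring. Every symbol lies above 0, and the interval of SCAP, from -0.08 to 0.27, is the only one that includes 0.

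Levels between genes were compared as RPKM, computed from the recovered reads, the mapped total and the length of the canonical GENCODE transcript. In control, ACLY stood highest at 127 ± 6.7 (SD, n = 2), followed by SCD at 64.0 ± 0.57 and SREBF2 at 62.4 ± 0.19. FASN followed at 38.1 ± 2.8, INSIG1 at 28.3 ± 1.1 and SCAP at 15.5 ± 0.10. The lowest were ACACA at 9.02 ± 0.19, ELOVL6 at 7.13 ± 0.57 and SREBF1 at 4.57 ± 0.32. On this scale SREBF1 was the scarcest of the 9 in control, and in GNA13-deficient it reached 8.18 ± 0.13 beside ELOVL6 at 8.25 ± 0.16, where their libraries overlapped. No other neighbours in the order overlapped in either genotype. Which transcripts the authors counted is not given in the sources used here, so these levels hold for the canonical lengths only.

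The promoters of 8 of the 9 genes were matched in RefSeq (GRCh38.p14) by symbol, 11 windows in all. Among these windows, ACLY and ACACA had several starts. Any other start of a gene, SREBF1 included, was not searched. FASN was not matched. Each window reached from 250 bases before a transcript start to 50 after it, and both strands were searched for TCACNCCAC (a core of the sterol regulatory element), CACGTG (an E-box), CCAAT and GGGCGG (a GC box). SREBPs are known to bind sterol regulatory elements and E-boxes, with NF-Y at CCAAT and Sp1 at GC boxes nearby. The sterol regulatory element letters stood in the SREBF2 window alone, 133 bases before the start, with a CCAAT box 106 bases before it. That was 1 of the 11 windows. Over all 35116 RefSeq windows of this length, 1.13% held these letters, and 1.07% of the 16898 windows of genes tested. CACGTG was found in INSIG1 and SCAP, 55 and 58 bases before the start, in 2 of the 11 windows, against 7.26% of all windows and 9.02% of those of genes tested. CCAAT was found for 5 genes, in 7 of the 11 windows, against 34.6% of all windows and 34.5% of those of genes tested. GGGCGG was found for 8 genes, in 10 of the 11 windows, against 45.0% of all windows and 62.5% of those of genes tested. The ACLY windows overlap and hold the same CCAAT and GC box sites, so these sites enter the window counts more than once. A match is a run of letters and not a shown binding site, and its absence says nothing about sites outside the window.

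The 250 bases before the start are printed for SREBF2, which holds the sterol regulatory element letters, for INSIG1 and SREBF1, which changed most, and for SCD, the enzyme with the lowest adjusted p. They are RefSeq reference sequence in GRCh38.p14 coordinates, 5′ to 3′ on the gene's strand. Capitals mark matches to TCACNCCAC, CACGTG and CCAAT on either strand, and the SREBF1 stretch has none.
SREBF2 (chr22:41832855-41833104, plus strand): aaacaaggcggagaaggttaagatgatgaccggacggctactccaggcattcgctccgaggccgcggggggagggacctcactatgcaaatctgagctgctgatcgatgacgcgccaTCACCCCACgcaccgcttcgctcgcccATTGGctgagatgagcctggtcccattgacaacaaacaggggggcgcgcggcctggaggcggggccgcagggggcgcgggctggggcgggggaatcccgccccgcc
INSIG1 (chr7:155297628-155297877, plus strand): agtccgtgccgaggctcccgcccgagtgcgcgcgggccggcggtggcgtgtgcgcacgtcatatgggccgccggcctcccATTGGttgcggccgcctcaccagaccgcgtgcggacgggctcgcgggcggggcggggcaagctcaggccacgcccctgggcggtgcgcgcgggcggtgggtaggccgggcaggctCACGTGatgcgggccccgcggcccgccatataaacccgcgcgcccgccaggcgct
SREBF1 (chr17:17836987-17837236, minus strand): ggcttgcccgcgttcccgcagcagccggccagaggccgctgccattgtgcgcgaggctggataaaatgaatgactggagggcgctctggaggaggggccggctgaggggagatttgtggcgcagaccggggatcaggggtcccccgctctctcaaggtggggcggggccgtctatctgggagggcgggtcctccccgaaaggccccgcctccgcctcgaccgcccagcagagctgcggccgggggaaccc
SCD (chr10:100346983-100347232, plus strand): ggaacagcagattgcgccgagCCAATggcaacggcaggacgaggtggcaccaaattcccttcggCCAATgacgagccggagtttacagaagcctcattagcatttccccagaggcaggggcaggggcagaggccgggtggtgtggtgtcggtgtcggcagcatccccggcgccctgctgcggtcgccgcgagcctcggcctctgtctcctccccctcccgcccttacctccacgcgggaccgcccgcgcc

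**Figure D3:**
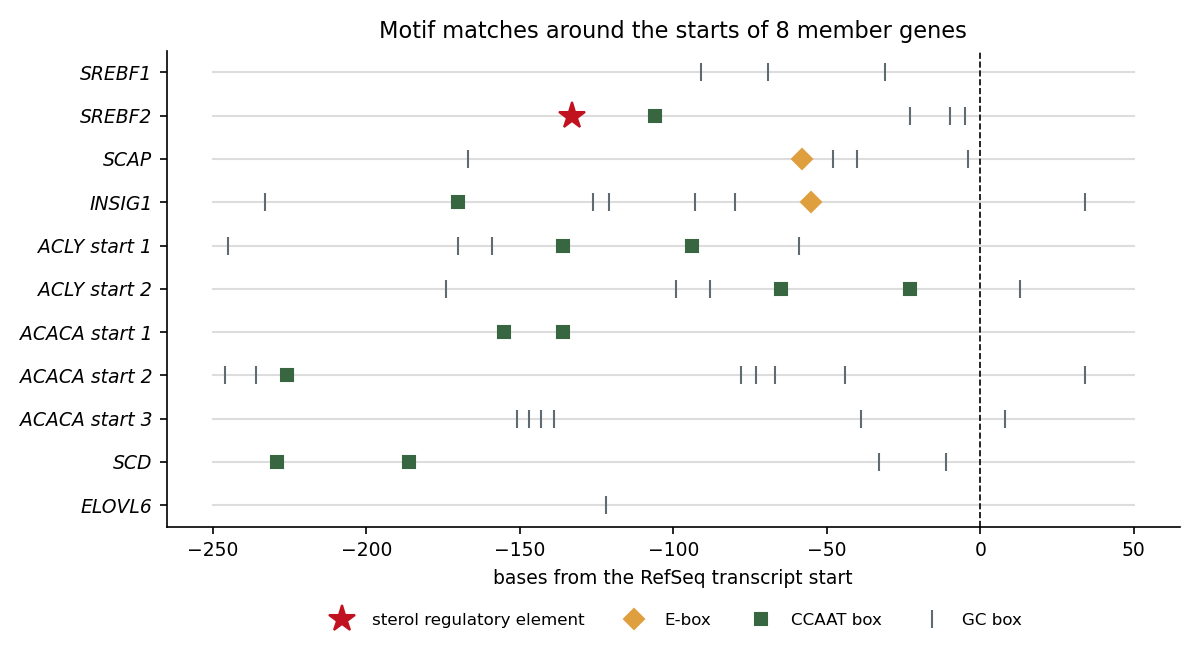
The horizontal axis is the distance in bases from each RefSeq transcript start, with 1 row per start of the 8 matched genes and a symbol at the first base of each motif match on either strand. The single star, the sterol regulatory element letters of SREBF2, lies 133 bases before the start, and the E-box diamonds of INSIG1 and SCAP lie 55 and 58 bases before theirs.

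The other genes of the pathway were described from 7 lists of 130 genes, none of them among the 9 and all found in the table by symbol, older symbol or gene ID. These lists, too, were chosen with earlier results of these data known. Counts are over the genes tested in each list, at an adjusted p under 0.05 by limma, with no test of the list as a whole. Every gene called in these lists kept its direction under each of the 15 alternatives that tested it.

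Among 14 sterol-regulated SREBP targets, 13 were tested, and 10 were higher (76.9%, against 13.1% of all genes tested) and 2 lower (15.4% against 16.6%), with a median log2 difference of 0.34. HMGCS1, which makes HMG-CoA, rose by 1.24 (standard error 0.06), and FDFT1, squalene synthase, rose by 0.80 (standard error 0.07). The sterol carrier STARD4 rose by 0.54 (adjusted p = 0.0106, chosen after its values were seen). Both falls were late enzymes of cholesterol synthesis, but not all late enzymes fell. LSS and CYP51A1, also late, rose by 0.31 each (adjusted p = 0.0138 and 0.0306 by limma). These were named after their values were seen. DHCR7, the last reductase, had 615 and 726 reads in control and 70 and 84 in GNA13-deficient and fell by 3.05 (standard error 0.16), and SC5D fell by 1.16 (standard error 0.09).

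Other genes that control SREBPs went both ways: of 25 tested, 3 were higher and 6 lower, with a median of -0.01. These shares, 12% and 24%, lay near the 13.1% and 16.6% of all genes tested. Under median centring 7 were higher and 5 lower, and scaled to mapped reads 1 was higher and 7 lower. SPRING1, a cofactor of SREBP cleavage, had log2 values of 12.69 and 12.78 in control and 11.83 and 11.86 in GNA13-deficient and fell by 0.89 (standard error 0.06, adjusted p = 0.00157). MBTPS1, the Golgi protease that makes the first cut of SREBPs, fell by 0.45 (standard error 0.08, adjusted p = 0.0171), while MBTPS2, which makes the second, had a difference of 0.11 (adjusted p = 0.247). UBXN8 rose by 0.58 (standard error 0.13). LPIN1, a phosphatidate phosphatase that also acts on nuclear SREBP, fell by 0.63 (standard error 0.06). The retinoid X receptors that pair with LXR were lower: RXRA had 33 and 30 reads in control and 6 in each GNA13-deficient library, and RXRB fell by 0.77 (standard error 0.07). SP1 and RNF145 were the remaining rises, at 0.31 and 0.24. MBTPS1, MBTPS2, UBXN8, SP1 and RNF145 were named after their values were seen.

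LXR, a sterol-activated receptor, is a known driver of SREBF1 transcription. Of 12 LXR targets, 9 were tested, and 4 were lower (44.4%, against 16.6% of all genes tested) and 1 higher (11.1% against 13.1%), with a median of -0.57. Any part of LXR in the SREBF1 difference was not tested. ABCG1, which exports cholesterol, had log2 values of 7.89 and 8.35 in control and 6.30 and 6.81 in GNA13-deficient and fell by 1.56 (standard error 0.25, adjusted p = 0.0122). ABCA1, the other main cholesterol exporter, fell by 1.38 (standard error 0.26). MYLIP, a ubiquitin ligase, fell by 0.57 (standard error 0.12). LPCAT3, which loads polyunsaturated chains onto phospholipids, was the exception and rose by 0.51 (standard error 0.06). NR1H2 and NR1H3, the genes of LXR itself, were not called, with differences of -0.01 and 0.51 (adjusted p = 0.900 and 0.185, named after their values were seen).

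Genes that feed, extend and desaturate fatty acids followed the 9 genes in part. Of 26, 21 were tested, and 10 were higher (47.6%, against 13.1% of all genes tested) and 4 lower (19.0% against 16.6%), with a median of 0.24. SLC25A1, which exports citrate from mitochondria to ACLY, had log2 values of 10.06 and 10.13 in control and 10.64 and 10.67 in GNA13-deficient and rose by 0.56 (standard error 0.06). ACSS1, ACSS2 and IDH1 were not called, with differences of 0.0175, 0.059 and 0.0775 (adjusted p = 0.870, 0.776 and 0.377 by limma). The desaturases FADS1 and FADS2 rose by 0.59 (standard error 0.05) and 0.56 (standard error 0.07). Their neighbour FADS3 went the other way, with 2094 and 2413 reads in control and 782 and 813 in GNA13-deficient, and fell by 1.43 (standard error 0.08). Of the elongases, ELOVL2 rose by 1.10 (standard error 0.08) and ELOVL5 by 0.46 (standard error 0.06), while ELOVL1 was not called (0.07, adjusted p = 0.477). The second stearoyl-CoA desaturase SCD5 rose by 0.83 (standard error 0.10). Of the enzymes shared by the elongation cycle, TECR, HACD2 and HACD3 rose by 0.51, 0.42 and 0.24, and HSD17B12 was not called (-0.02, adjusted p = 0.822).

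The sharpest fall in that list was at a regulator of acetyl-CoA carboxylase. MID1IP1, which promotes polymerization of the enzyme, had 673 and 790 reads in control and 63 and 69 in GNA13-deficient and fell by 3.40 in log2 value (standard error 0.14, adjusted p = 0.000850). Its paralog THRSP was not called (-0.15, adjusted p = 0.320). MLYCD, which breaks down malonyl-CoA, fell by 1.30 (standard error 0.16). The second carboxylase gene ACACB had log2 values of 6.43 and 6.66 in control and 7.31 and 7.05 in GNA13-deficient and did not pass (0.63, adjusted p = 0.0650). OLAH, with 3 and 4 reads in control and 1 and 0 in GNA13-deficient, and ELOVL7, with 1 and 0 against 3 and 3, were called but had too few reads for a fold. The genes of this list other than MID1IP1, FADS3, OLAH and ELOVL7 were named after their values were seen.

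Fatty acid uptake and activation genes had 5 of 11 tested called higher (45.5%, against 13.1% of all genes tested). The count called lower was 0, against 16.6% of all genes tested, and the median was 0.17. FABP5, an intracellular fatty acid carrier, had 5689 and 5855 reads in control and 7770 and 8299 in GNA13-deficient and rose by 0.55 (standard error 0.07). FABP3 rose by 0.80 (standard error 0.21) from 56 and 50 reads, and DBI, which binds acyl-CoA, by 0.43 (standard error 0.07). The acyl-CoA synthetases ACSL3 and ACSL4, which activate fatty acids, rose by 0.45 and 0.25 (standard errors 0.05 and 0.06), ACSL4 named after its values were seen. The transporter CD36 and the lipase LPL did not pass the filter on low values.

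Mitochondrial fatty acid synthesis, a separate pathway that makes the lipoic acid precursor, showed 2 higher genes of 10 and a median of 0.01. These were NDUFAB1, the acyl carrier protein, at 0.42 (standard error 0.06) and HSD17B8 at 0.74 (standard error 0.18, adjusted p = 0.0396). The share of higher calls, 20.0%, lay near the 13.1% of all genes tested.

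Glycerolipid synthesis and storage genes were called mostly as lower on the deposited scale, 5 of 21 tested against 1 higher, with a median of -0.15. The share of lower calls, 23.8%, lay near the 16.6% of all genes tested. Under median centring the split was 2 lower and 6 higher, and scaled to mapped reads 7 lower and none higher. GPAM, which starts glycerolipid synthesis and is a known SREBF1 target, rose by 0.46 (standard error 0.09, adjusted p = 0.0205). PLIN2, the coat protein of lipid droplets, had 300 and 354 reads in control and 24 and 31 in GNA13-deficient and fell by 3.51 (standard error 0.23, adjusted p = 0.00158). DGAT2, which makes triglyceride, had 10 and 18 reads in control and 1 and 2 in GNA13-deficient, too few for a fold, and DGAT1 was not called (0.10, adjusted p = 0.496). AGPAT3 fell by 0.45 (standard error 0.07). AGPAT2 and the triglyceride lipase PNPLA2 fell by 0.37 and 0.30, and these and DGAT1 were named after their values were seen.

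**Figure D4:**
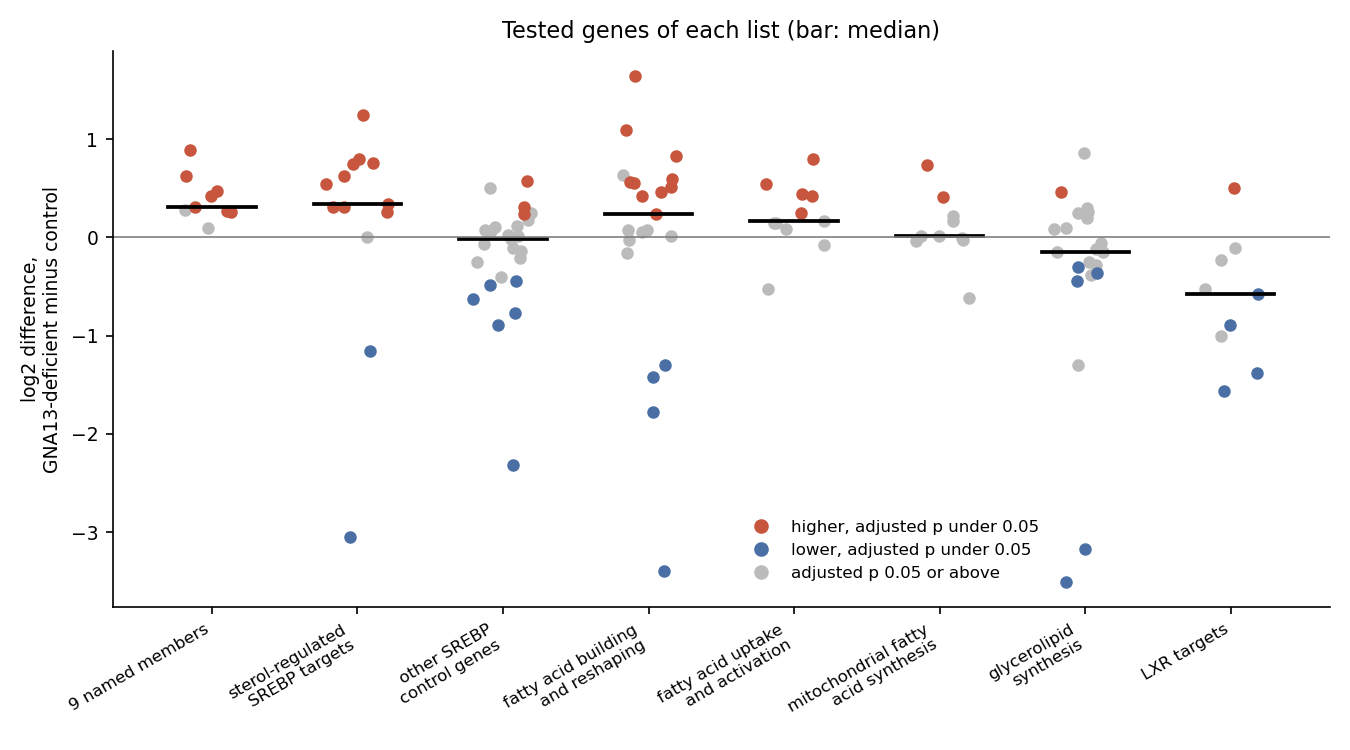
The vertical axis is the log2 difference between GNA13-deficient and control, and each point is 1 tested gene of the list named on the horizontal axis, red where higher and blue where lower at an adjusted p under 0.05 and grey otherwise, with a bar at the list's median. The medians of the 9 genes and of the sterol-regulated targets lie at 0.31 and 0.34, and that of the LXR targets at -0.57.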

How the data were processed

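RNA was sequenced from 4 libraries of NUDUL1 cells. Per the paper's methods, the authors prepared stranded poly(A) libraries, aligned reads to hg19 with STAR and log2-transformed normalized reads. The submitters' processing notes name HTSeq, and the method of normalization is not given in the sources used here. The analysis used the log2 values that the authors deposited, with 0 as the lowest listed value. A row of mapped-read totals that the authors deposited with them, on another scale, served only for depth. Reads were recovered by dividing each linear value by the value of 1 read. All values up to 400 reads were whole within 0.05 read and the rounding of the log2 value. In control replicate 2, 1 read falls below a log2 value of 0, so no gene is listed at 1 read there.

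Genes above 0 in at least 2 libraries were fitted with limma 3.58.1 in R 4.3.3 (mean-variance trend, genotype as the only term), and p values were adjusted over all 16945 by the Benjamini-Hochberg method, with a threshold of 0.05. The cells were treated in duplicate, and no source says that duplicates were separate cultures, so p values measure the spread between these libraries, which may be technical. Intervals and read counts cover no other source of error. The fit was tested on simulated libraries. The 9 genes and the lists were chosen with earlier results of these data known. Named genes were the 9, GNA13, and in each list the 4 with the largest absolute difference among those called without overlap. A few genes that enter the counts are not reported here by name. Alternatives were other filters, pseudocounts of 1 and 10, quantile normalization, median centring, a replicate block, no variance trend, a robust prior, voom weights and leaving out each library, and, added after the values were seen, scaling to mapped reads. Lengths and hg19 positions came from GENCODE on GRCh37, the assembly of hg19. Figures were drawn with matplotlib 3.10.9.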

Additional observations from a re-analysis of the deposited data

How the results depend on the processing

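All 9 genes kept their direction under every alternative. Beside the 7 calls, no filter gave 2, no variance trend 2 and quantile normalization 4. The count over all genes was 5037, and 1999 without the filter and 2718 without the variance trend. The median of the 9 genes was 0.51 under median centring. Without the filter, calls were 9 of the feeding, extending and desaturating genes, 1 mitochondrial, 1 uptake, 1 glycerolipid, 2 LXR and 7 sterol-regulated. Without the variance trend they were 5 of the SREBP control genes, 9 feeding, extending and desaturating, 0 mitochondrial, 2 uptake, 2 glycerolipid and 2 LXR. The stricter filter gave 10 glycerolipid calls, and scaling to mapped reads 1 mitochondrial and 3 uptake calls. Quantile normalization moved the log2 ratio of SREBF1 to SREBF2 to a difference of 0.82, of INSIG1 to INSIG2 to 0.66 and of ACLY to ACACA to -0.10, reversed from 0.02. Causes were not tested.

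Control and GNA13-deficient libraries carry the same replicate numbers, but nothing in the sources links libraries of 1 number. Their deviations from the genotype means had a correlation of 0.453 over 8473 genes. Genes are not independent, and 2 pairs cannot show a pairing. With the replicate block, 8 of the 9 genes were called, ACACA added (adjusted p = 0.0370), and 14 SREBP control and 11 glycerolipid genes.

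With 1 library left out, every count of calls was 0 in limma, since 1 residual degree of freedom remains. The median of the 9 genes ranged from 0.28 to 0.41. The difference of the log2 ratio ranged from 0.54 to 0.69 for SREBF1 to SREBF2, 0.48 to 0.58 for INSIG1 to SCAP, 0.73 to 0.81 for INSIG1 to INSIG2, -0.37 to -0.06 for ELOVL6 to FASN, -0.16 to 0.047 for SCD to FASN and -0.0845 to 0.13 for ACLY to ACACA. The last 2 changed sign: SCD to FASN was 0.0285 with the first control library left out and 0.047 with the first GNA13-deficient library left out. ACLY to ACACA was -0.011 when control replicate 2 was omitted, and -0.0845 when the second GNA13-deficient library was. Under the alternatives that kept all libraries, 15 values of the 9 genes lost and 4 gained their call, and 79 values of the other pathway genes lost it. A floor of 3 reads limits OLAH, ELOVL7 and DGAT2.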
